A study of Mus musculus with 8 samples.

Results

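The 10 genes described here encode the machinery that makes, degrades and reads cyclic AMP (cAMP) in mouse cells sorted as eosinophils: the phosphodiesterases Pde3b, Pde4a, Pde4b, Pde4d and Pde7a, the adenylyl cyclase Adcy7, the protein kinase A (PKA) subunits Prkar1a and Prkaca, and the transcription factors Crem and Creb1. They were chosen by name with earlier results of these data known, and each matched 1 row among the 38392 genes of the expression table. The data were bulk RNA sequencing of eosinophils from wildtype C57/BL6 mice, with 4 libraries from bone marrow (BM_1, BM_3, BM_4 and BM_5) and 4 from small intestine (SI_6, SI_7, SI_10 and SI_11). The study describes the mice as female and age-matched and gives an age range for its experiments as a whole but no age for these animals, and by the labels no mouse carried a targeted allele or received an agent. Bone marrow cells were sorted as CD11b+Ly6G-Ly6C-SiglecF+SSChi, and intestinal cells as CD11b+MHC-II-SiglecF+SSChi after stripping of the epithelium, warm enzymatic digestion and enrichment on anti-CD11b beads. Tissue and handling of the cells can therefore not be told apart in any difference given here. The question the comparison addresses is how the transcriptome of an eosinophil differs between its site of production and the gut.

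As background, Gs-coupled receptors activate adenylyl cyclases, which convert ATP to cAMP, and Gi proteins inhibit most of these enzymes. cAMP binds the regulatory subunits of PKA and frees the catalytic subunits, which phosphorylate CREB-family factors on the cAMP response element. Phosphodiesterases end the signal by hydrolysing cAMP, and PDE4 enzymes are the main such activity in leukocytes and the target of anti-inflammatory drugs such as roflumilast. In granulocytes, cAMP is best known for dampening activation.

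Depth was 11508002 to 21289164 reads per library, recovered from the deposited values. Values below are normalised counts, which are reads divided by the size factor of the library, unless a sentence names the log2 scale, which is that of the deposited variance-stabilised values. Reads of the members summed over the 4 libraries of a tissue ran from 230 (Crem in bone marrow) to 68651 (Pde4b in small intestine). Markers of the sorted cells and of other cells differed between the tissues. The 6 eosinophil markers ran from 2394 to 3387 in summed level in bone marrow libraries and from 16963 to 25132 in intestinal ones, led by Prg2 in bone marrow and by the eotaxin receptor gene Ccr3 in small intestine, with 3 of them higher and the 3 granule protein genes lower in small intestine. The 10 neutrophil precursor markers ran from 490242 to 633192 in bone marrow libraries and from 742 to 1025 in intestinal ones, led by Mpo in bone marrow, and all 10 were lower in small intestine. Epithelial markers, led in small intestine by Krt19, ran from 54.5 to 90.4 and from 2565 to 16421, with all 6 higher, and the 8 macrophage and dendritic cell markers, led there by Adgre1, ran from 836 to 1051 and from 15509 to 22513, with 7 higher. Adgre1 is also expressed by eosinophils. Mpo averaged 149860 in bone marrow beside 350 for Epx and 70.9 for Ccr3, although the sort was to leave out Ly6G+ and Ly6C+ cells. The MHC-II gene H2-Ab1 averaged 1093 in small intestine and 143 in bone marrow, although the intestinal sort was to leave out MHC-II+ cells. Values of both tissues below are therefore those of the libraries labelled eosinophils, and how much of them came from eosinophils is not known. The part of other cells in the differences below was not tested, and in bulk libraries fewer cells of a type and less RNA per cell cannot be told apart.

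CREB binds the palindrome TGACGTCA, the full cAMP response element, and the shorter motif TGACG, which reads CGTCA on the other strand and lies inside the palindrome. Promoter windows of 300 bases, from 250 bases before to 50 bases after an annotated start, were held by RefSeq (GRCm38.p6) for 7 of the members, in 20 windows, with no entry for Pde3b, Pde7a and Crem. Among all 32851 windows of this length in the RefSeq table, 1.79% held the full motif and 20.8% the short one on either strand. Of the 20 member windows, 2 held the full motif, both of them overlapping windows of Prkar1a, and 7 windows of 5 members held the short motif. By gene, 2.03% of all 27025 genes with windows held the full motif and 23.0% the short one. The 7 members had 20 windows, against 32851 for the 27025 genes, and more windows give a gene more places for a match. Enrichment among the members was not tested. Which of the annotated starts these cells used was not tested. The sequences below are 1 window for each of the 5 members with a short motif. Each is shown 5′ to 3′ from its first base to the motif nearest the start site, with motif letters in capitals.
Pde4b (chr4:102421305-102421525, plus strand): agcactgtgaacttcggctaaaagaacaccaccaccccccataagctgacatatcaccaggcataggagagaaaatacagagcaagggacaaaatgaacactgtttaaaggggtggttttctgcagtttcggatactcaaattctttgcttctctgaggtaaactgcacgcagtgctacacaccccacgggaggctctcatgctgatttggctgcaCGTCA
Pde4a (chr9:21183851-21184055, plus strand): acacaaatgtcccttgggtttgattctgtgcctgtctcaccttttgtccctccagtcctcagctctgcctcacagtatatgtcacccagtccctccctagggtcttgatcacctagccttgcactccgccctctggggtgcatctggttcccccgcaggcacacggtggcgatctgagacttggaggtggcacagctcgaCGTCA
Adcy7 (chr8:88282742-88282968, plus strand): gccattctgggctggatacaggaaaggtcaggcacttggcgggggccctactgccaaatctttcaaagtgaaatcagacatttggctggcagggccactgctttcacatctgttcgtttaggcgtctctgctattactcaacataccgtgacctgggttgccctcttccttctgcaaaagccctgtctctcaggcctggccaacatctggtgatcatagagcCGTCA
Prkar1a (chr11:109650699-109650907, plus strand): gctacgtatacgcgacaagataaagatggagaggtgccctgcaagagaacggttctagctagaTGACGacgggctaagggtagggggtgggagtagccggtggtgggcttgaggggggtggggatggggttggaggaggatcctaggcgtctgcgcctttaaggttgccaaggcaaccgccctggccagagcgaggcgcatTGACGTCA
Prkaca (chr8:83972728-83972976, plus strand): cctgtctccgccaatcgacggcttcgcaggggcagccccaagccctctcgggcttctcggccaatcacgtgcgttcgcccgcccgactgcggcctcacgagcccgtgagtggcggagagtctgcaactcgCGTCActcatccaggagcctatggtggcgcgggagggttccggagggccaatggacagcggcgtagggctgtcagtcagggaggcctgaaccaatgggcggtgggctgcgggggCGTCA
The Pde4b motif began 34 bases upstream of its start, that of Adcy7 28 bases and that of Pde4a 50 bases. The Prkaca window held 2 short motifs, and the Prkar1a window held the full palindrome as well as a separate TGACG. The windows of Creb1 and Pde4d held neither motif. A match of letters is a description and says nothing of occupancy by a factor.

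Of the 10 members, 6 passed the test between the tissues (limma on all genes, adjusted p under 0.05), 5 of them higher and 1 lower in small intestine. Among all 38392 genes 34.9% passed, 22.0% higher and 12.9% lower, and among the 16215 genes that averaged 10 reads or more, where all members lie, 63.1% passed, 34.6% higher and 28.6% lower. A count of 6 in 10 was thus near the share among genes at this depth. The median difference of the members was 0.78 on the log2 scale, beside 0.37 over all genes and 0.12 over genes with at least 10 reads. Because the members were chosen with earlier results known, this is not independent evidence of a direction. The libraries of the tissues did not overlap for 8 members, 6 higher and 2 lower in small intestine, beside 34.3% of all genes and 67.4% of genes with at least 10 reads. What set the members apart from each other was size: Pde4b, Crem and Pde3b were higher by more than 4 on the log2 scale, and the other 7 differed by less than 1.

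**Figure D1:**
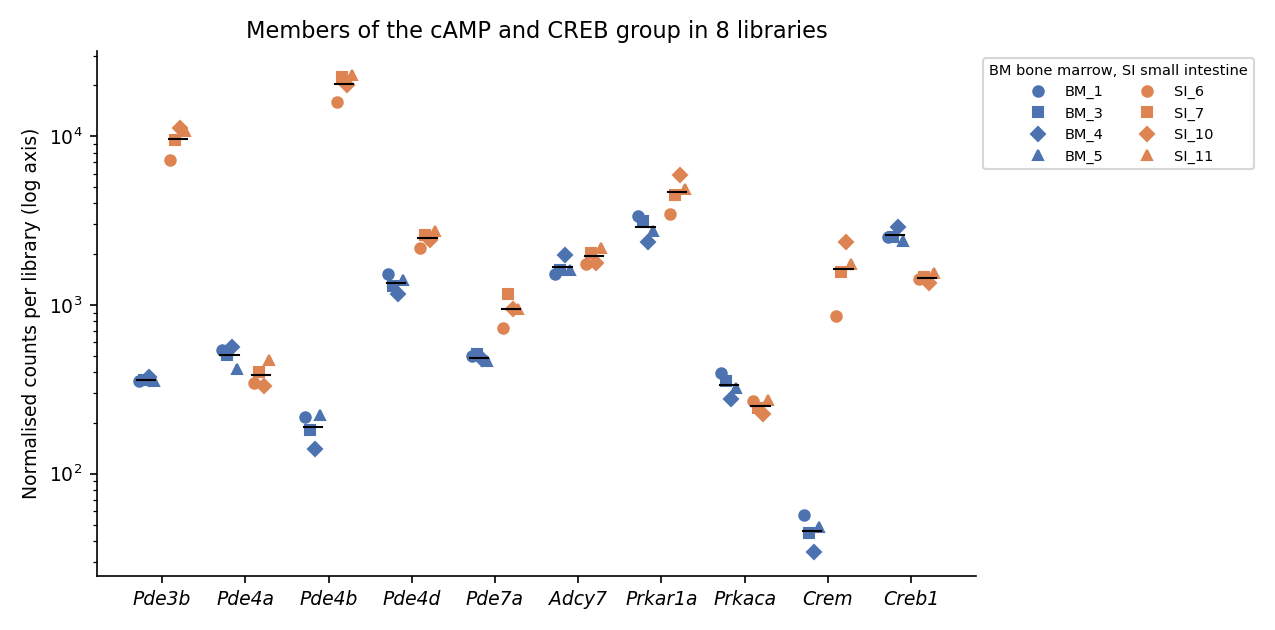
Normalised counts of the 10 members on a log axis, with 1 point per library (bone marrow blue, small intestine orange) and a bar at the mean of each tissue. The 4 small intestine libraries of Pde3b, Pde4b and Crem sit far above the 4 bone marrow libraries, whereas those of Pde4a and Adcy7 overlap them.

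Pde4b, a PDE4 enzyme prominent in inflammatory cells, had the largest difference of the members. It stood at 218 in BM_1, 181 in BM_3, 140 in BM_4 and 223 in BM_5. The small intestine libraries held 15944 in SI_6, 22320 in SI_7, 20114 in SI_10 and 23187 in SI_11. The lowest intestinal library was thus far above the highest marrow library. The means of 190 ± 38.6 and 20391 ± 3235 (SD, n = 4) differed 107-fold, or by 6.72 ± 0.23 (SE) on the log2 scale (limma adjusted p = 5.52e-07). That difference was larger than that of 99.6% of all genes.

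Pde3b, a cGMP-inhibited enzyme that hydrolyses cAMP, was the second phosphodiesterase to rise steeply. Bone marrow libraries were tightly grouped, at 356 in BM_1, 359 in BM_3, 372 in BM_4 and 353 in BM_5. Small intestine libraries held 7182 in SI_6, 9504 in SI_7, 11194 in SI_10 and 10805 in SI_11. Pde3b was 26.9-fold higher in small intestine, from 360 ± 8.48 to 9671 ± 1810 (SD, n = 4), a difference of 4.71 ± 0.20 on the log2 scale (limma adjusted p = 1.44e-06). As for Pde4b, SI_6 was the lowest of the intestinal libraries.

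The remaining 3 phosphodiesterases differed little beside these. Pde4d, a second PDE4 gene, ranged from 1163 in BM_4 over 1293 in BM_3 and 1414 in BM_5 to 1532 in BM_1, and from 2191 in SI_6 over 2441 in SI_10 and 2613 in SI_7 to 2742 in SI_11. It rose 1.85-fold, by 0.89 ± 0.18 on the log2 scale (limma adjusted p = 0.00556), with no overlap of the tissues. Pde7a, a cAMP-specific enzyme that is insensitive to PDE4 inhibitors, held 498, 512, 478 and 463 in BM_1, BM_3, BM_4 and BM_5, and 727, 1161, 941 and 947 in SI_6, SI_7, SI_10 and SI_11. It rose 1.93-fold, by 0.93 ± 0.20 (limma adjusted p = 0.00647), again without overlap. Both passed in 13 of 14 alternatives, among them quantile normalisation and centring on the genes that averaged 10 reads or more. The exception was centring each library on its median over all genes, where the differences were -0.013 for Pde4d and 0.028 for Pde7a and neither passed. Pde4a, the third PDE4 gene, held 541, 508, 560 and 418 in bone marrow and 345, 398, 329 and 471 in small intestine, in the same library order. Its groups overlapped, and the difference of -0.40 ± 0.20 did not pass (limma adjusted p = 0.178, 95% interval -0.86 to 0.07).

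**Figure D2:**
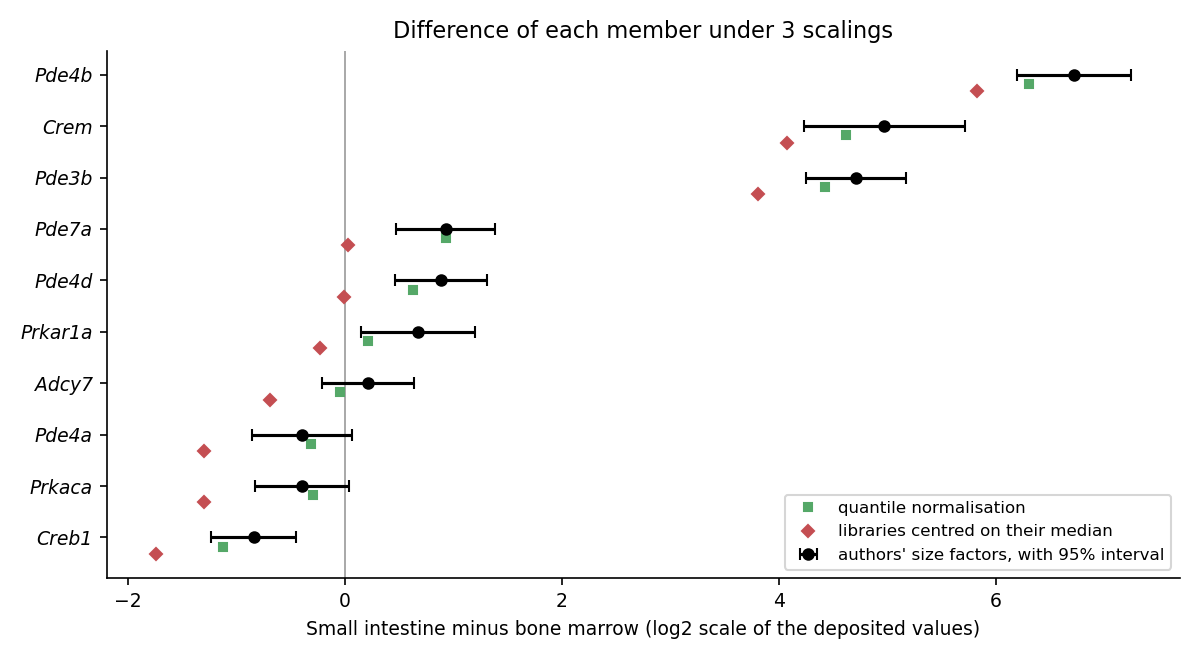
Difference of each member between small intestine and bone marrow on the log2 scale of the deposited values, with its 95% interval (black), beside the same difference after quantile normalisation (green) and after centring each library on its median (red). Pde4b, Crem and Pde3b stay above 3 under all 3 scalings and Creb1 stays below 0, whereas Pde4d, Prkar1a and Adcy7 take another sign with median centring, and Adcy7 also with quantile normalisation.

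The makeup of the phosphodiesterase family within a library does not depend on the scaling between libraries. The level of each gene was divided by the length of its exons, and its share of the summed level of the 15 cAMP-hydrolysing genes in the table was taken in each library. In bone marrow the family was led by Pde8a, a high-affinity cAMP-specific enzyme outside the member list, at 32.8% ± 1.11 (SD, n = 4), and by Pde4d at 22.4% ± 2.04. This order depended on the length used, since with the longest annotated transcript Pde4d led with 38.3%, ahead of Pde8a. Pde4a held 13.2%, Pde7a 12.6%, Pde3b 7.90% and Pde4b 3.59%. In small intestine Pde4b held 53.4% ± 2.02 and Pde3b 29.3% ± 2.61, so that this pair made up most of the family in each of the 4 libraries. Pde4d stood at 5.80% there, Pde7a at 3.37%, Pde8a at 1.59% and Pde4a at 1.40%.

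The tissues did not overlap for any of these 6 shares. Pde4b ranged from 2.71% in BM_4 to 4.32% in BM_5, and from 51.1% in SI_10 to 55.6% in SI_7. For each of them the exact two-sided permutation test over the 70 assignments of libraries gave p = 0.0286, the smallest that 4 libraries against 4 allow, and 0.0540 after Benjamini-Hochberg adjustment over the 34 shares of 5 families examined. With 18 of the 34 shares at that smallest p, none reached an adjusted p under 0.05. Shares of Pde4d and Pde7a were lower in small intestine although their normalised counts were higher, while the summed level of the family averaged 501 ± 20.7 per kb of exon in marrow against 3610 ± 504 per kb in the gut, a ratio of 7.20.

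**Figure D3:**
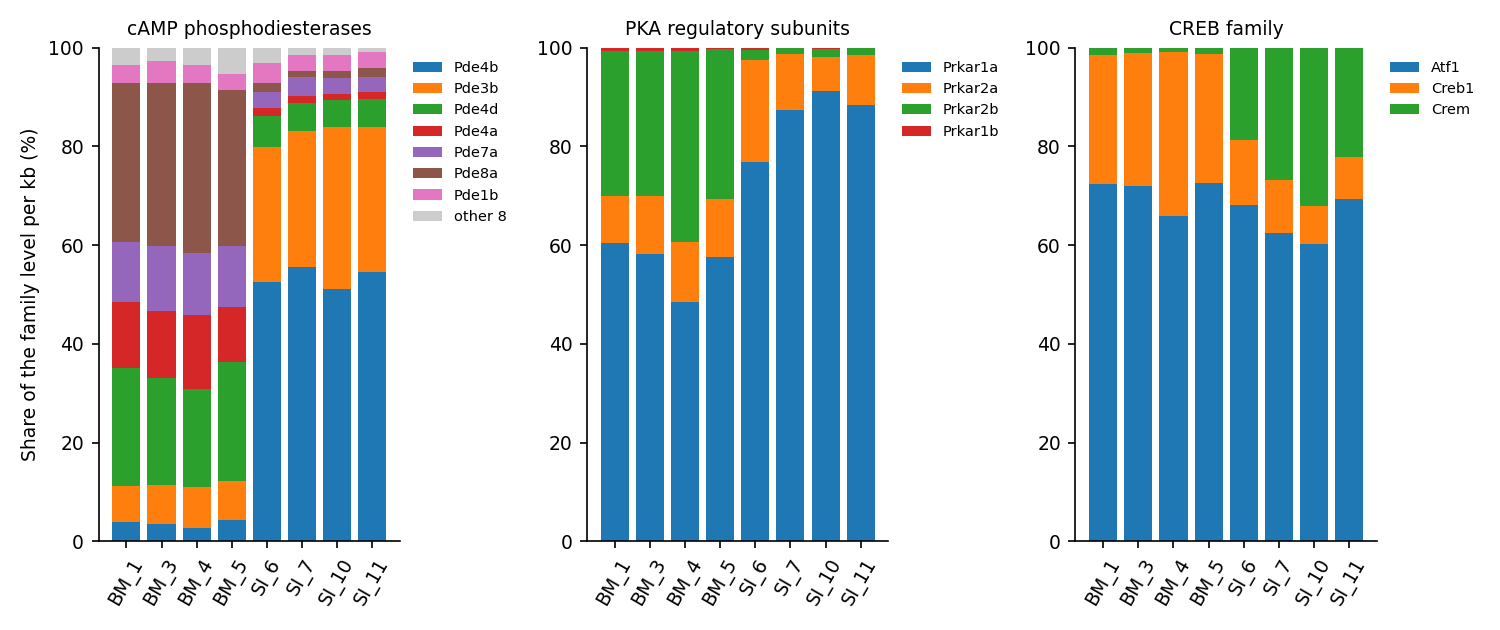
Share (%) of each gene in the summed per-kb level of its family in each of the 8 libraries, for the cAMP phosphodiesterases (7 genes and the other 8 together), the PKA regulatory subunits and the CREB family. Pde8a and Pde4d hold most of the first panel in bone marrow and Pde4b and Pde3b in small intestine, Prkar2b is prominent in bone marrow, and Crem is visible as a large share in small intestine.

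Of the 10 other phosphodiesterase genes in the table, 6 rose and 1 fell, and 2 of these 7 had a mean below 10 reads. The median difference of that list was 1.85 on the log2 scale, beside 0.37 over all genes. Of all genes 22.0% passed higher and 12.9% lower, and of genes that averaged 10 reads or more 34.6% and 28.6%. Pde8a fell 2.90-fold, from 665 ± 28.9 to 229 ± 33.7 (SD, n = 4), by 1.53 on the log2 scale (SE 0.18, limma adjusted p = 0.000281). Pde3a, the paralogue of Pde3b, rose by 4.52 ± 0.73 (limma adjusted p = 0.00141), but unevenly, with 599 in SI_6, 207 in SI_7, 110 in SI_10 and 93.6 in SI_11, beside 1.53 to 23.2 in bone marrow. The summed epithelial markers held 16421, 6695, 2565 and 3104 in the same intestinal libraries. The summed fibroblast markers fell across these libraries in the same order as Pde3a. The part of epithelial, fibroblast or other cells in the Pde3a value was not tested.

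Adcy7, a cyclase of haematopoietic cells, was the only cyclase among the members. It held 1527, 1606, 1977 and 1602 in BM_1, BM_3, BM_4 and BM_5, and 1760, 2044, 1766 and 2186 in SI_6, SI_7, SI_10 and SI_11. The groups overlapped because BM_4 was above SI_6 and SI_10. The difference of 0.21 ± 0.19 on the log2 scale did not pass (limma adjusted p = 0.448, 95% interval -0.22 to 0.63), and it was -0.69 with median centring and -0.050 with quantile normalisation. Adcy7 made up 68.1% ± 1.74 of the summed per-kb level of the 10 cyclases in marrow libraries, against 59.9% ± 4.95 in the gut (SD, n = 4), and was the leading cyclase in every library.

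Among the 9 other cyclases, 6 rose and 2 fell, 1 of the 8 with a mean below 10 reads. Beside these counts, 22.0% of all genes passed higher and 12.9% lower, and 34.6% and 28.6% of genes that averaged 10 reads or more. Adcy9, the cyclase with the next highest level per kb in small intestine, rose 3.34-fold, from 176 ± 15.3 to 587 ± 42.2 (limma adjusted p = 0.00011), and its family share was 9.27% in marrow against 23.6% in the gut. Adcy3 fell from 194 ± 40.2 to 36.2 ± 14.2, by 2.37 on the log2 scale (limma adjusted p = 0.000561). The largest rise was that of Adcy6, at 3.57 ± 0.62 (limma adjusted p = 0.00212), with 593 in SI_6, 287 in SI_7, 102 in SI_10 and 79.4 in SI_11. SI_6 and SI_7, the highest for Adcy6, also had the highest epithelial, fibroblast, macrophage and dendritic, and B and plasma cell sums. The part of these cells in the Adcy6 value was not tested. The summed cyclase level averaged 365 ± 35.4 per kb in marrow against 481 ± 31.5 per kb in the gut, a ratio of 1.32 beside the 7.20 of the phosphodiesterases.

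Upstream of the cyclases, Gnas, which encodes the stimulatory G protein alpha subunit, was low in both tissues, at 69.2 ± 12.3 and 43.9 ± 6.26, and its difference of -0.61 ± 0.21 did not pass (limma adjusted p = 0.0515). The inhibitory subunit genes Gnai2 and Gnai3 had much higher counts, whereas Gnai1 was below Gnas in both tissues. Gnai2 fell from 6150 ± 552 to 3535 ± 565 (limma adjusted p = 0.0119) and Gnai3 from 3937 ± 757 to 2063 ± 156 (limma adjusted p = 0.00897), each without overlap of the tissues. Gnai1 was at 0 in 3 of the 4 bone marrow libraries and at 1.91 in BM_4, and at 19.0 to 42.6 in small intestine (limma adjusted p = 0.000131). Gnas carries overlapping transcripts, so its gene-level value depends on how the authors' counting assigned shared reads.

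Of 6 Gs-coupled prostanoid and adenosine receptor genes, 3 rose and 2 fell, beside 22.0% and 12.9% of all genes. Among genes that averaged 10 reads or more the shares were 34.6% and 28.6%. The adenosine receptor Adora2b rose by 5.41 ± 0.35 on the log2 scale (limma adjusted p = 1.17e-05), with no bone marrow library above 2.79 and with 109 in SI_6, 211 in SI_7, 321 in SI_10 and 327 in SI_11. Adora2a, the high-affinity adenosine receptor of leukocytes and the highest of the list per kb, rose from 9.22 ± 7.34 to 405 ± 167 (limma adjusted p = 9.15e-05). The prostacyclin receptor Ptgir fell 8.01-fold, from 286 ± 10.3 to 35.7 ± 14.4 (limma adjusted p = 0.000137). Receptors that feed the same second messenger thus differed in opposite directions between the tissues.

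Prkar1a, which encodes the type I alpha regulatory subunit that holds PKA inactive until cAMP binds, had the highest per-kb level of the members in bone marrow. It held 3374 in BM_1, 3161 in BM_3, 2373 in BM_4 and 2734 in BM_5, and 3467 in SI_6, 4514 in SI_7, 5904 in SI_10 and 4861 in SI_11. The tissues did not overlap, but SI_6 was only just above BM_1. The difference of 0.67 ± 0.23 on the log2 scale just missed the threshold (limma adjusted p = 0.0506, 95% interval 0.15 to 1.20). Without SI_6 it passed, at 0.81 (limma adjusted p = 0.0147), and with median centring it was -0.23.

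Prkaca, the alpha catalytic subunit of the kinase, held 396, 352, 276 and 322 in BM_1, BM_3, BM_4 and BM_5, and 269, 245, 226 and 273 in SI_6, SI_7, SI_10 and SI_11. The tissues did not overlap, but BM_4 and SI_11 were close together. The difference of -0.40 ± 0.19 did not pass (limma adjusted p = 0.154, 95% interval -0.83 to 0.04). The second catalytic subunit gene, Prkacb, stood at 1942 ± 182 and 1346 ± 153 and missed the threshold as well (limma adjusted p = 0.0516). Prkaca held 37.8% ± 3.50 of the summed per-kb level of the pair in marrow against 39.9% ± 1.96 in the gut (exact permutation p = 0.429), a difference within the spread of the libraries. Together the pair summed to 357 ± 34.3 per kb and 255 ± 24.2 per kb.

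The regulatory subunits had a different makeup in the tissues. Prkar2b, the type II beta subunit, fell 18.9-fold, from 1390 ± 158 to 73.4 ± 13.7, by 4.18 on the log2 scale (SE 0.21, limma adjusted p = 2.65e-06), and was the only one of the 4 other PKA subunit genes that passed. Prkar2b held 32.0% ± 4.47 of the summed regulatory subunit level per kb in marrow against 1.63% ± 0.397 in the gut. Prkar1a held 48.5% to 60.5% in bone marrow libraries and 76.9% to 91.2% in intestinal ones. Both shares separated the tissues without overlap (exact permutation p = 0.0286, adjusted 0.0540). Prkar2a held 11.3% and 12.2%, with a high value of 20.6% in SI_6, and its normalised count of 1369 in SI_6 stood beside 663 to 854 in the other intestinal libraries. SI_6 also had the highest epithelial, fibroblast, macrophage and dendritic, and B and plasma cell sums. The part of these cells in the Prkar2a value was not tested. Prkar1b was low, at 24.6 ± 7.77 and 9.41 ± 8.99 (limma adjusted p = 0.0840). The summed regulatory subunit level averaged 1195 ± 93.1 per kb in marrow against 1252 ± 190 per kb in the gut, a ratio of 1.05.

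Genes for proteins that bind or place PKA, and for the cAMP-activated EPAC exchange factors, gave a mixed picture. The gene for the PKA inhibitor Pkig rose 1.95-fold (limma adjusted p = 0.00521), and the other 2 inhibitor genes did not pass. Rapgef3, which encodes the cAMP-activated exchange factor EPAC1, fell from 103 ± 17.1 to 26.3 ± 7.52 (limma adjusted p = 0.00054), and Rapgef4 did not pass. Of 9 A-kinase anchoring protein genes, 5 rose and 1 fell, beside 34.6% and 28.6% of genes that averaged 10 reads or more. Akap5, whose product tethers PKA near the plasma membrane, rose from 54.1 ± 20.3 to 630 ± 248 (limma adjusted p = 0.00014). Akap13, the most abundant of them per kb, rose 1.93-fold to 17211 ± 2520 (limma adjusted p = 0.00421). Akap11 fell from 1638 ± 89.8 to 1015 ± 112 (limma adjusted p = 0.0144).

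Crem, the cAMP response element modulator, encodes activator and repressor forms, among them the inducible repressor ICER made from an internal promoter. It held 56.7 in BM_1, 44.3 in BM_3, 34.4 in BM_4 and 48.3 in BM_5. In small intestine it held 862 in SI_6, 1571 in SI_7, 2365 in SI_10 and 1739 in SI_11. Crem rose 35.6-fold, from 46.0 ± 9.24 to 1634 ± 618 (SD, n = 4), by 4.97 ± 0.32 on the log2 scale (limma adjusted p = 1.13e-05). In proportion to their mean its intestinal libraries spread more than those of the other members, with SI_6 lowest and SI_10 highest. The annotation holds 39 Crem transcripts and the table sums them, so activator and repressor forms cannot be told apart, and 8.01% of its exon bases are shared with the antisense gene Gm6225.

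Creb1, an activator of the family, differed in the other direction and was the only member that passed as lower in the fit reported. It held 2541, 2521, 2916 and 2401 in BM_1, BM_3, BM_4 and BM_5, and 1416, 1458, 1347 and 1550 in SI_6, SI_7, SI_10 and SI_11. The tissues did not overlap, and the spread within each was small beside the gap. Creb1 fell 1.80-fold, from 2595 ± 223 to 1443 ± 85.2 (SD, n = 4), by 0.84 on the log2 scale (SE 0.17, limma adjusted p = 0.00483). Within the CREB family of Creb1, Crem and Atf1, Creb1 held 26.1% to 33.3% of the summed per-kb level in bone marrow libraries and 7.82% to 13.2% in intestinal ones, and Crem held 1.15% ± 0.191 and 24.9% ± 5.78 (SD, n = 4). Neither share overlapped between the tissues (exact permutation p = 0.0286, adjusted 0.0540). Crem was thus below Creb1 in every bone marrow library and above it in every intestinal library per kb, while Atf1 was the highest of the family in all 8 libraries, at 70.7% and 65.0% (exact permutation p = 0.0857). With the longest annotated transcript Atf1 also led, with 65.3% and 55.9%. Without division by length Creb1 led in bone marrow, with 63.3% against 35.6% for Atf1. The Atf1 share was then higher in small intestine, at 41.2% (exact permutation p = 0.0286, unadjusted). In normalised counts Crem was below Creb1 in SI_6.

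CREB partner and coactivator genes were higher or did not pass, with 4 of 6 rising and none falling. Among genes that averaged 10 reads or more, 34.6% passed higher and 28.6% lower. The CREB-regulated coactivators, which enter the nucleus when cAMP blocks their kinases, rose for all 3 genes: Crtc1 by 4.05-fold, from 193 ± 38.1 to 781 ± 134 (limma adjusted p = 0.000179), Crtc2 by 0.73 ± 0.20 on the log2 scale (limma adjusted p = 0.0205) and Crtc3 by 2.12 ± 0.21 on that scale (limma adjusted p = 9.31e-05). With median centring Crtc2 was at -0.17. The acetyltransferase gene Crebbp rose 2.05-fold, from 2889 ± 120 to 5930 ± 546 (limma adjusted p = 0.00166). Its paralogue Ep300 stood at 5260 ± 250 and 5492 ± 408, and its difference of 0.06 did not pass (limma adjusted p = 0.803) and was negative under each of the 3 other scalings. Atf1 stood at 1457 ± 118 and 2166 ± 523 (limma adjusted p = 0.0945), and its difference of 0.54 was -0.36 with median centring.

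All 12 textbook CREB target genes on the list rose, by 2.60 to 8.89 on the log2 scale, with a median of 5.72 and without overlap of the tissues, beside 22.0% of all genes and 34.6% of genes that averaged 10 reads or more that passed in that direction. The list was chosen with earlier results of these data known, so its count is not independent evidence of a direction. Fosb, an immediate early factor, had the largest rise, from 12.3 ± 5.31 to 7276 ± 934 (limma adjusted p = 2.87e-07). Dusp1, a phosphatase of MAP kinases and the most abundant of the list per kb, rose 245-fold, from 144 ± 44.9 to 35350 ± 6983 (limma adjusted p = 5.98e-07). Sik1, a salt-inducible kinase that phosphorylates CREB-regulated coactivators, rose 11.9-fold (limma adjusted p = 1.23e-05), while Sik2 and Sik3 did not pass. Many of these genes are also immediate early genes that other signals and the handling of cells induce, and handling differed between the tissues, so that these cannot be told apart here.

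**Figure D4:**
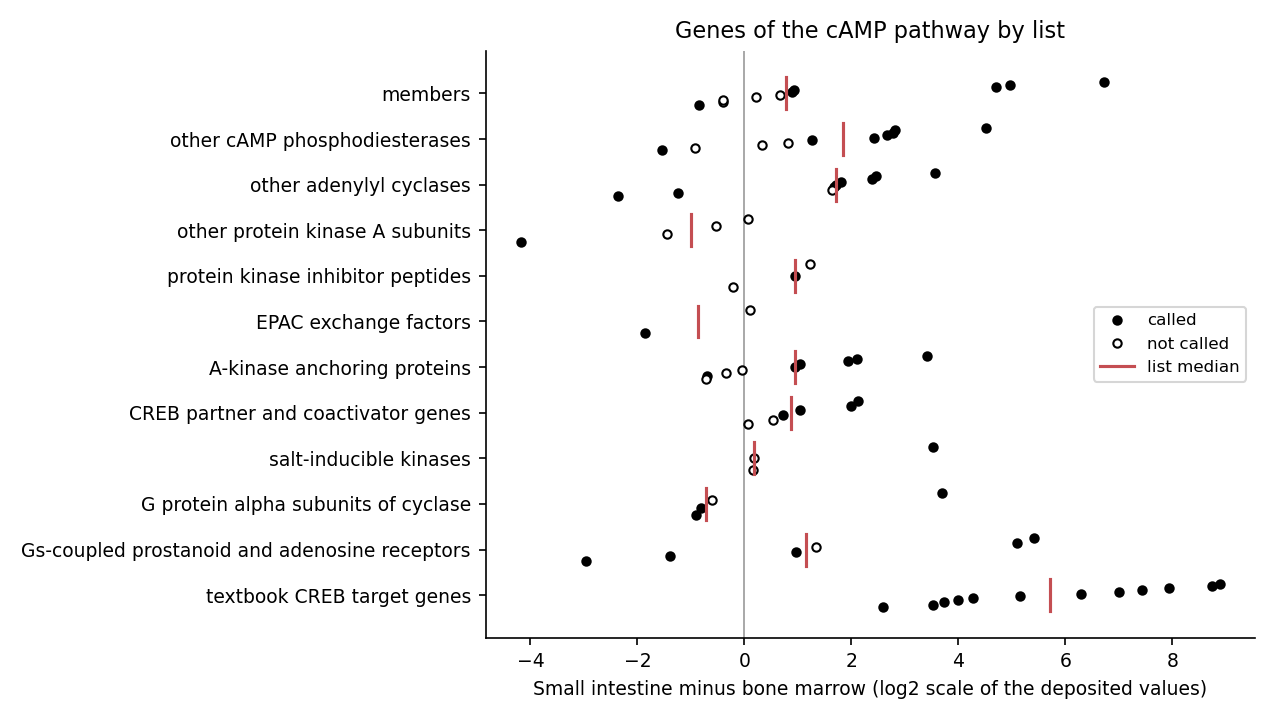
Difference between small intestine and bone marrow on the log2 scale of the deposited values for each gene of the members and of 11 further lists, with filled points for genes that passed (limma adjusted p under 0.05), open points for the others and a red bar at the median of each list. The 12 CREB target genes all lie above 2, the other PKA subunits lie mostly below 0, and the members spread from -0.84 to 6.72. With each library centred on its median, all points move down by about the same amount.

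Over all 67 genes of these lists other than the members, 38 rose and 10 fell, and 6 of the 67 had a mean below 10 reads. Among genes that averaged 10 reads or more, 34.6% passed higher and 28.6% lower, beside 22.0% and 12.9% of all genes. The 38 include the 12 CREB target genes, a list chosen with earlier results of these data known. The split among the 67 genes also depended on scaling. With each library centred on its median the median over all genes moved from 0.37 to -0.53, the higher share of all calls from 63.2% to 29.5%, and the number of these pathway genes that fell from 10 to 17. Relative to that shift Pde4b, Crem and Pde3b were still called higher and Creb1 lower, and Pde4a and Prkaca were called lower as well.

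The order of the members by level per kb of exon differed between the tissues. In bone marrow Prkar1a was highest at 674 per kb, followed by Adcy7 at 249, Creb1 at 189, Prkaca at 135, Pde4d at 112, Pde4a at 66.2, Pde7a at 63.0, Pde3b at 39.5, Pde4b between 13.2 and 21.1, and Crem at 7.80. Neighbours in that order were separate in all libraries, apart from Prkaca and Pde4d and from Pde4a and Pde7a, whose ranges overlapped. In small intestine Pde4b was highest at 1931 per kb, followed by Prkar1a at 1085 and Pde3b at 1061, whose ranges overlapped. Adcy7 at 288, Crem at 277 and Pde4d at 208 came next, with overlap of Crem with both neighbours, then Pde7a at 122, Creb1 at 105 and Prkaca at 102, with overlap between neighbours, and Pde4a was lowest at 50.4. The genes ranked 8 and 9 in bone marrow, Pde3b and Pde4b, were thus ranked 3 and 1 in small intestine. Ranks of long genes depended on the length used, since with the longest annotated transcript Pde4d was ranked 2 in bone marrow and 4 in small intestine.

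Single libraries stood out across the members. Within bone marrow BM_4 was lowest for 5 members (Pde4b, Pde4d, Prkar1a, Prkaca and Crem) and highest for the 4 members Pde3b, Pde4a, Adcy7 and Creb1. Within small intestine SI_6 was lowest for 7 members and highest for none, and SI_11 was highest for 6. SI_6 also had the highest epithelial, fibroblast, macrophage and dendritic, and B and plasma cell sums. Without SI_6 the number of members called went from 6 to 7, the added gene being Prkar1a, and Pde4b, Pde3b, Crem and Creb1 passed with any 1 of the 8 libraries left out.

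The members lie on separate parts of the genome (GRCm38, GENCODE M21). Pde4b spans 102087543 to 102607259 on chromosome 4 and Pde4d 108449948 to 109953461 on chromosome 13, each with many promoters. Pde4a lies at 21165714 to 21213248 on chromosome 9, Pde3b at 114415281 to 114539251 on chromosome 7, and Pde7a at 19223108 to 19311322 on chromosome 3, where 0.620% of its exon bases are shared with an antisense gene. Adcy7 (88272403 to 88329962) and Prkaca (83972993 to 83996443) are both on chromosome 8, Prkar1a is at 109649405 to 109669656 on chromosome 11, Creb1 at 64532645 to 64604548 on chromosome 1, and Crem at 3266048 to 3337748 on chromosome 18. Apart from Pde7a and Crem, no member shares exon bases with another annotated gene, and values are sums over all isoforms of a gene.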

How the data were processed

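RNA was amplified with the NuGEN Ovation system and sequenced as single-end reads. Per the labels and the study's methods, the authors counted reads per gene with the nf-core/rnaseq pipeline on GRCm38 and deposited variance-stabilised values on a log2 scale, made with DESeq2 in R (4.0.3). Aligner, strandedness and handling of multi-mapping reads were not given in the sources used here. The 8 columns of the table name a tissue and a number. These numbers do not follow those of the sample labels, so each column was assigned to its tissue only. Replicates were 4 mice per tissue.

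The transform was inverted from the lowest deposited value, 0.92971568, which every gene without reads carries. All recovered values were whole reads within 0.05, which gave normalised counts and totals of 11508002 to 21289164 reads per library. Differences were tested on the deposited log2 values of all 38392 genes with limma (3.58.1, R 4.3.3, constant prior, two-sided, no covariate, no filter), adjusted by Benjamini-Hochberg over all genes with a threshold of 0.05. Of these genes 22177 had a mean below 10 reads, where differences in depth alone can pass the test, so counts are also given at 10 reads or more. Levels per kb used the union of annotated exons (GENCODE M21), and family shares were compared by exact permutation. The code was tested on simulated data.

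Alternatives were limma voom on the recovered reads, a trended prior, a minimum mean of 10 reads, centring on the library median, quantile normalisation, leaving out each library, other gene lengths and, added after seeing the data, centring on the median of genes with 10 reads or more. Named beside the members were, in each pathway list, the called genes with the largest rise and fall and the highest level per kb, with every gene of the PKA, coactivator and G protein lists open to naming. Of each marker list, the gene with the highest level in either tissue was named. Prg2, Epx, H2-Ab1 and the marrow values of Ccr3 were added after values were seen. Ranges of the marker sums not given in the report were 747 to 945 in bone marrow and 1.19 to 20.8 in small intestine for erythroid genes (highest in either tissue, Hbb-bs), 39.2 to 71.6 and 160 to 217 for T cells (Cd4), 245 to 404 and 427 to 2655 for B and plasma cells (Jchain), 5.74 to 61.4 and 154 to 724 for fibroblasts (Col3a1), and 2628 to 3625 and 553 to 1855 for mast cells and basophils (Kit, with Mcpt4 at 0 in all bone marrow libraries). The members and lists were chosen with earlier results of these data known. Of the listed phosphodiesterase genes, Pde2a was not analysed here. Promoter sequences were from RefSeq (GRCm38.p6).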

Additional observations from a re-analysis of the deposited data

Results flagged for a closer look

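Among 40 groups of 4 libraries examined, namely the normalised values and family shares of the members in each tissue, 1 held a library far from the rest, where chance gives about 2. It was the share of Creb1 in its family in bone marrow, with 33.3% in BM_4 beside 26.3% in BM_1, 27.0% in BM_3 and 26.1% in BM_5, a gap of 0.875 of the whole range, above Dixon's critical value at the 95% level. BM_4 also had the highest Creb1 count and the lowest Crem count of the bone marrow libraries. The intestinal shares of Creb1, at 7.82% to 13.2%, were below all 4 values.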

How the results depend on the processing

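No paired analysis was possible because the columns of the 2 tissues share no replicate number. The counts of called members stood at 6 in the fit reported and at 6 to 8 over the alternatives. Pde3b, Pde4b, Crem and Creb1 were called in all 14, Pde4d and Pde7a in 13, Prkar1a in 4, Pde4a and Prkaca in 2 each and Adcy7 in none. A trended prior and the minimum of 10 reads each gave 2 members called lower. Centring libraries on their median gave 3 members higher, 3 lower and 17 other pathway genes lower, and turned the differences of Pde4d (-0.013), Adcy7 (-0.69), Prkar1a (-0.23), Pde4c (-0.080), Pde7b (-0.57), Prkar2a (-0.84), Rapgef4 (-0.79), Atf1 (-0.36), Crtc2 (-0.17), Ep300 (-0.84), Sik2 (-0.72) and Sik3 (-0.73). Quantile normalisation turned Adcy7 (-0.050), Pde4c (-0.20), Pde7b (-0.25), Rapgef4 (-0.69) and Ep300 (-0.54), and centring on genes with 10 reads or more turned Prkar2a (-0.0034) and Ep300 (-0.0039). Under these 3 scalings the median over all genes moved from 0.37 to -0.53, -0.027 and 0.31, and the share of all calls that were higher went from 63.2% to 29.5%, 45.8% and 59.5%. With 1 library left out, the differences that changed sign ranged from -0.19 to 0.33 for Rapgef4, -0.070 to 0.023 for Akap8, -0.14 to 0.20 for Prkar2a and -0.47 to 0.064 for Pkib. Family shares without overlap numbered 18, 19 with the longest transcript, 21 without division by length and 18 to 26 with 1 library left out, the last without BM_5.

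No scaling can be chosen from these data, because no spike-in values were used here and tissue, handling and cell mixture differ together. The calls of Pde4d and Pde7a were lost under 1 of the scalings tried, centring on the median of all genes. Family shares within a library do not depend on scaling, but those of Pde4d and Pde7a were lower in small intestine. A share also depends on the other genes of its family, so it cannot decide these calls. With 4 libraries per tissue the permutation test cannot go below 0.0286. All members had at least 230 reads summed over the libraries of a tissue, with 36 reads for Crem in BM_4. The effect of depth on the members was not tested.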
